A study of Populus trichocarpa with 12 samples.

Results

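The regions described here lost the histone mark H3K9ac in differentiating stem xylem of Populus trichocarpa, or black cottonwood, both after 5 days and after 7 days without water. A region was taken when a day 5 region and a day 7 region overlapped by at least 50% of each length and met the same criteria in both tables. Both drought libraries had to lie below both day 0 libraries, with a drought mean at least 1.20-fold below the day 0 mean. The region had to be shorter than 3000 bp, and its H3K9ac enrichment over the inputs, taken as the geometric mean of both deposited ratios, had to be at least 0.5. These criteria gave 2019 region pairs out of the 5871 pairs that overlapped to this extent (34.4%). Of the 10605 regions listed for day 5, 36.2% met the criteria of a single day, as did 32.0% of the 12101 listed for day 7. The loss itself chose the regions, so its size is described below without a test.

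H3K9ac is the acetylation of lysine 9 on histone H3. Acetyltransferases of the GCN5 family write it and histone deacetylases remove it, and in plants it sits mainly over the promoters and the beginnings of transcribed genes. Differentiating stem xylem holds the living cells that mature into the vessels and fibres of wood. Abscisic acid, the main drought hormone of plants, acts through bZIP factors that bind promoters, and acetylation of promoter histones is one of the layers at which such responses are set.

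Plants were 3 months old. Day 0 plants were fully watered, with a soil water content of 74% and a xylem water content of 80.6%. Day 5 plants had gone without water for 5 days and were in mild drought, with 33% and 75.3%. Day 7 plants were in severe drought after 7 days, with 29% and 74.3%. Each day had 2 libraries of H3K9ac chromatin immunoprecipitation and 2 of input DNA, 12 in all. Whether replicates are separate plants is not stated, so spreads and p-values measure the difference between these libraries, which may be technical. Neither drought day had a watered group of its own, so drought and other differences between sampling days cannot be told apart. Genes were not assigned and no sequence is shown. The headers do not name the genome build in full, and the gene table at hand is of assembly P.trichocarpa_v4.1. Coordinates are 1-based and are those of the deposited tables. A named region carries its day 5 borders, except the regions nearest the 1.20-fold limit, which carry their day 7 borders. Values of the day 7 table are those of the paired day 7 region, whose borders can differ.

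The 2019 regions held between 585632 and 1192975 reads per library, and the median region between 261 and 533. The thinnest region had 62 reads in a library. Without molecular identifiers, several reads may stem from 1 DNA molecule. The authors divided the reads of each library by a constant, and the constants of day 0 differed between the tables. Normalised reads of day 0 in the day 5 table were therefore 1.09 times those in the day 7 table, and values are compared within a table below.

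All libraries of a day sat at nearly the same level over the 2019 regions. Relative to the mean of the day 0 libraries, the median region stood at a log2 value of -0.49 in day 5 replicate 1 and -0.53 in day 5 replicate 2. The medians were -0.49 in day 7 replicate 1 and -0.53 in day 7 replicate 2. Over all listed regions, which include gains, the same medians lay between -0.09 and -0.04. Replicates of a region differed by a median of 1.09-fold at day 5, against 1.06-fold at day 0 in the same table. At day 7 they differed by 1.09-fold, against 1.06-fold at day 0. In 34 regions the day 5 replicates were more than 1.5-fold apart, and in 31 regions the day 7 replicates were. For day 0 the count was 0 in the day 5 table and 1 in the day 7 table. Over all listed regions the counts were 115 of 10605 at day 5 and 81 of 12101 at day 7. For day 0 they were 10 and 11. The median difference between replicates over all listed regions was 1.06-fold on each drought day, against 1.05-fold at day 0.

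**Figure D1:**
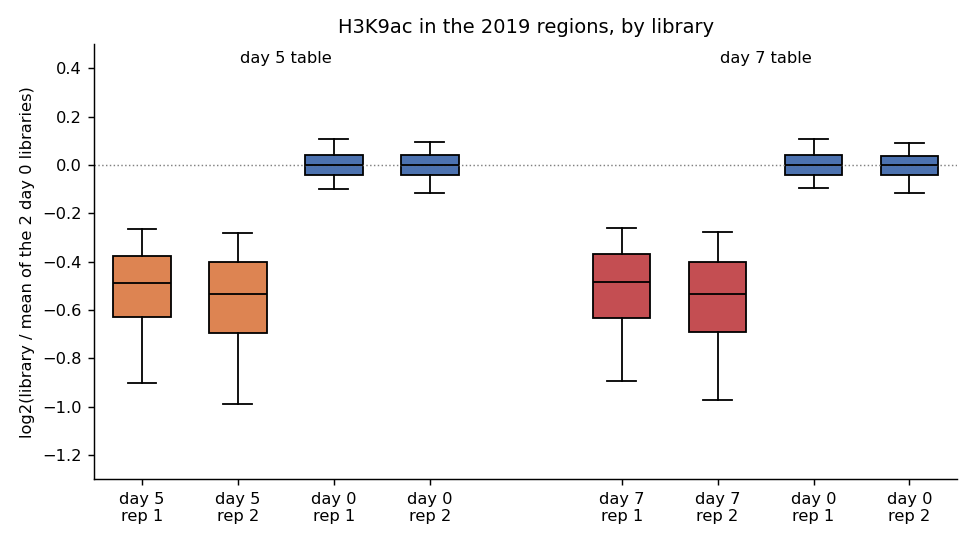
Log2 of each library's normalised reads over the mean of the 2 day 0 libraries, for the 2019 regions. Boxes show the median and quartiles and whiskers the 5th and 95th percentiles. The drought medians lie between -0.53 and -0.49, below the day 0 boxes in both tables, as the choice of the regions requires.

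In the 10 strongest losses the drought signal was under 50% of that at day 0. The region on chromosome 19 from 11045401 to 11047900 held 393 and 443 normalised reads in the day 5 libraries, against 1219 and 1337 in the day 0 libraries. In the day 7 table it held 437 and 379 at day 7, against 1119 and 1224 at day 0. It was thus 3.06-fold lower at day 5 and 2.87-fold lower at day 7, with every drought library far below the day 0 libraries. Chromosome 1 from 27932601 to 27935200 had 486 and 428 normalised reads at day 5, against 1277 and 1262 at day 0. At day 7 it had 511 and 367, against 1172 and 1155 at day 0. The day 7 replicates of this region were further apart than those of day 0, and both stayed far below them.

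Chromosome 18 from 1292001 to 1294100 held 288 and 219 normalised reads in the day 5 libraries, against 687 and 620 in the day 0 libraries, and was 2.58-fold lower. At day 7 it held 271 and 209, against 630 and 567 at day 0, a loss of nearly the same size. A shorter region, on chromosome 1 from 9362401 to 9363700, rested on far fewer reads. Its day 5 libraries held 133 and 77.6 normalised reads, against 242 and 279 at day 0. Its day 7 libraries held 95.7 and 86.3, against 222 and 255 at day 0, and were closer to each other than the day 5 libraries. Chromosome 15 from 7255301 to 7257400 was 2.46-fold lower at day 5 and 2.49-fold lower at day 7, although its day 5 replicates stood at 396 and 280 normalised reads.

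Chromosome 9 carried a pair of such losses. From 2226701 to 2228600 the day 5 libraries held 222 and 229 normalised reads, against 591 and 458 at day 0. At day 7 this region held 234 and 177, against 542 and 419 at day 0. Here the day 0 replicates differed more than those of day 5. The drought and day 0 libraries did not overlap, as the choice of the regions requires. From 2006201 to 2009100 the day 7 libraries held 311 and 320 normalised reads, close together, against 818 and 815 in the day 0 libraries. The day 5 libraries of that region lay further apart, at 315 and 464, against 891 and 890 at day 0. It was 2.29-fold lower at day 5, and 2.59-fold lower at day 7.

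The remaining regions among the 10 with the largest loss held on both days lay on chromosome 7, on chromosome 1 and on chromosome 11. Chromosome 7 from 13938201 to 13940300 held 335 ± 15.0 normalised reads at day 5 against 764 ± 51.8 at day 0 (SD, n = 2 each). At day 7 it held 281 ± 3.04 against 701 ± 48.4 at day 0 (SD, n = 2 each). Chromosome 1 from 50405701 to 50408600 held 503 ± 46.2 normalised reads at day 5 against 1147 ± 101 at day 0 (SD, n = 2 each). This was the only region of the 10 whose borders differed between the tables, with a day 7 region 2300 bp long inside a day 5 region of 2900 bp. Chromosome 11 from 1292801 to 1294900 was 2.33-fold lower at day 5 and 2.25-fold lower at day 7.

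**Figure D2:**
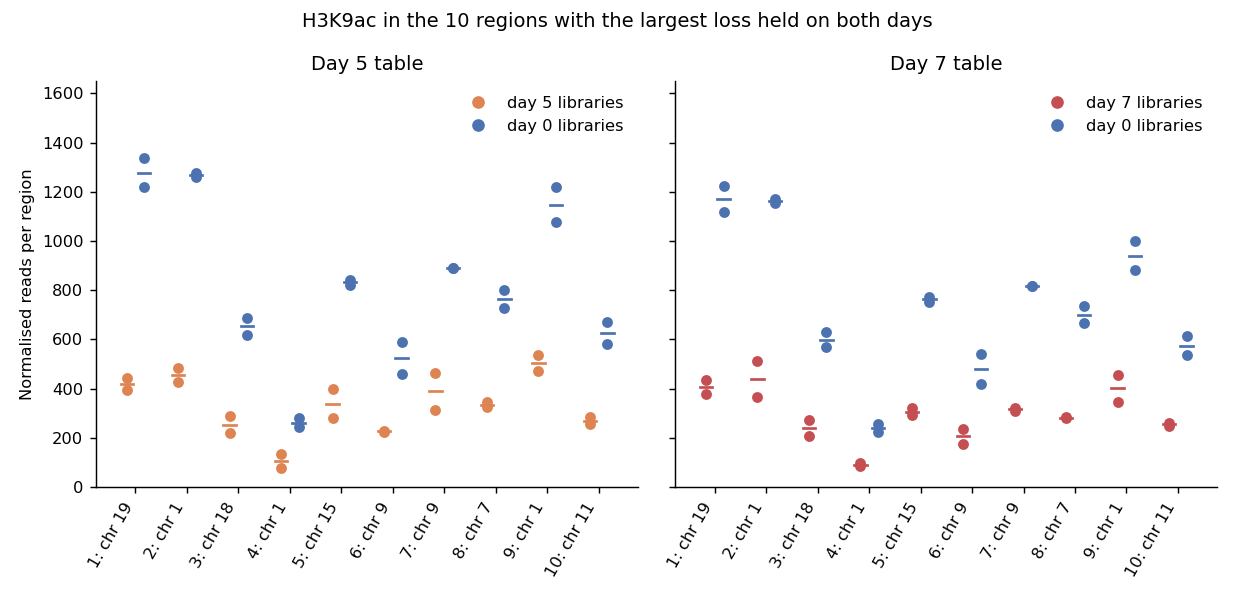
Normalised reads per region in each library for the 10 regions with the largest loss held on both days, numbered from 1 to 10 by that loss. Points are libraries and short lines are means of 2 libraries. In every one of these regions both drought libraries lie below both day 0 libraries, as the rule for choosing them requires.

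Losses of this size were rare among the 2019 regions. The median region was 1.43-fold lower at day 5, or -0.52 on the log2 scale with quartiles of -0.63 and -0.41. At day 7 it was also 1.43-fold lower, or -0.51 with quartiles of -0.63 and -0.40. For unscaled reads, which are not corrected for depth, the median log2 change was -0.57 at day 5 and -0.84 at day 7. For reads over the mean reads per bin, a scaling added after the data were seen, it was -0.62 and -0.69. How alike the days were thus varied with the scaling. A log2 change of -1 or less was reached by 59 regions at day 5, where 0.764% of all listed regions reached it, and by 52 at day 7, against 0.645% of listed regions. On both days 30 regions reached it. A further 408 regions had a smaller loss of between 1.5-fold and 2-fold, and 788 had a smaller loss under 1.33-fold. The lowest day 0 library exceeded the highest drought library by a median of 1.30-fold on each day. In the authors' deposited table, 44 regions at day 5 and 74 at day 7 did not pass an adjusted p of 0.05, and 1907 passed on both days. Of all regions listed there, 91.5% passed at day 5 and 89.1% at day 7, so passing it does not set the lost regions apart.

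Just inside the ratio limit lay a region on chromosome 5 from 8644901 to 8645900 with 224 ± 7.59 normalised reads at day 7 and 269 ± 1.06 at day 0 (SD, n = 2 each). Just outside it lay one on chromosome 10 from 16506901 to 16507900 with 194 ± 3.76 at day 7 and 233 ± 0.686 at day 0 (SD, n = 2 each). The other regions nearest the limit were on chromosomes 14 and 16 inside it and on chromosomes 18 and 6 outside it, all about 1.20-fold lower at day 7. In total 816 pairs met every criterion but the ratio, and 134 of the 2019 regions had a ratio of 0.82 or more on at least 1 day.

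Regions with the most H3K9ac before drought kept high levels at day 5 and day 7. Chromosome 18 from 517601 to 519900 had the most day 0 reads per kb. Its day 5 libraries held 1483 and 1416 normalised reads, against 2242 and 1960 at day 0, a level of 630 against 914 normalised reads per kb. Chromosome 4 from 20326101 to 20328800 combined a high level with a large loss. It held 1094 and 1005 normalised reads at day 5, against 2251 and 1940 at day 0, and was 2.00-fold lower at day 5 and 2.14-fold lower at day 7. The other high regions were on chromosome 12, from 14020101 to 14021700 and from 14827701 to 14830300, and on chromosome 14 from 3287401 to 3289500. These were between 1.29-fold and 1.44-fold lower at day 5 and between 1.26-fold and 1.57-fold lower at day 7. In each of these high regions the paired day 7 region had other borders. Relative to its input, the region on chromosome 14 was higher at day 5, with a log2 change of 0.53 beside an input change of -0.98. The region from 14020101 on chromosome 12 had a change of 0.03 relative to its input at day 7.

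Taken over both tables as a geometric mean, the highest enrichment over the inputs was found on chromosome 17 at 15624901 to 15625900, with a ratio of 3.55 in the day 5 table and 5.38 in the day 7 table. This region held 656 and 617 normalised reads at day 5, against 799 and 751 at day 0. The paired day 7 region, from 15624501 to 15625700, held 455 and 491 at day 7, against 638 and 614 at day 0. The loss was thus small, 1.22-fold at day 5 and 1.33-fold at day 7, at a site of strong enrichment. Chromosome 3 from 17529401 to 17531300 (enrichment 4.71 and 3.81) and chromosome 5 from 330801 to 333700 (4.02 and 4.29) were 1.40-fold and 1.54-fold lower at day 5. Chromosome 16 from 636401 to 637500 was 1.44-fold lower on each day. The paired day 7 regions on chromosomes 3, 5 and 16 also had other borders. On chromosome 5 the day 7 region was 1500 bp long, against 2900 bp for the day 5 region. Chromosome 1 from 7615101 to 7617400 held 853 and 869 normalised reads in the day 5 libraries, against 1097 and 1101 in the day 0 libraries. The input of the regions on chromosomes 17 and 1 was higher at day 5, with log2 changes of 1.15 and 0.94.

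Most of the 2019 regions were moderately enriched. Their median enrichment was 1.64 in the day 5 table, against 2.13 in the 1315 regions that gained H3K9ac on both days by the mirrored criteria and 1.89 in all listed regions. In the day 7 table the medians were 1.67, 1.95 and 1.76. An enrichment of at least 2 was seen in 27.2% of the lost regions at day 5, against 57.1% of the gained and 44.1% of all listed regions. At day 7 the shares were 25.8%, against 45.7% of the gained and 34.8% of all listed regions. Regions lost at day 5 that overlapped no listed day 7 region had a median enrichment of 1.43, with 16.8% at 2 or more. Those lost at day 7 that overlapped no listed day 5 region had 1.62 and 25.5%. Low enrichment was therefore not particular to regions lost on both days. Before drought the lost regions carried a median of 300.2 normalised reads per kb in the day 5 table, against 207 in the gained regions and 277 in all listed regions. In regions lost at day 5 that overlapped no listed day 7 region the median was 270. Regions had been chosen by their day 0 reads, which alone favours high day 0 levels in losses and low ones in gains, and no test was run across regions.

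By class of enrichment the loss is a description, because the criteria used both values and the enrichment contains the drought reads. In the 44 regions with an enrichment under 1 the median log2 change was -0.55 at day 5 and -0.59 at day 7. In the 785 regions at 1.5 to 2 it was -0.52 and -0.51, and in the 46 regions at 3 or more it was -0.41 and -0.45. Quartiles of neighbouring classes overlapped throughout, and the median day 0 level in the day 5 table was 466 normalised reads per kb in the highest class and 267 in the lowest. By length, the median log2 change ran from -0.47 at day 5 and -0.46 at day 7 in regions under 1300 bp to -0.62 on both days in regions of 2100 bp or more. The tables join neighbouring windows that pass a threshold, so stronger changes can also be listed as longer regions, and the share of this in the relation was not tested.

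**Figure D3:**
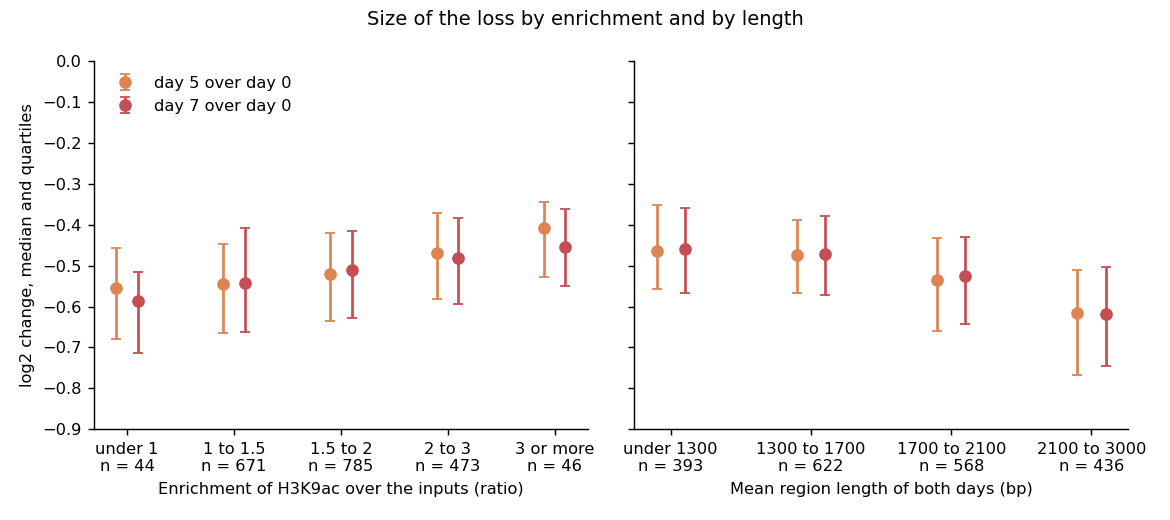
Median log2 change of H3K9ac at day 5 and at day 7 against day 0, by class of enrichment over the inputs and by class of mean region length, with the number of regions under each class. Bars span the quartiles. Medians run from -0.59 to -0.41 over the enrichment classes and from -0.62 to -0.46 over the length classes.

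Regions lost on both days were longer than those listed as lost on a single day, whose reads on the other day are not given. Their median length was 1700 bp in each table, against 1100 bp in the 1213 regions lost at day 5 that overlapped no listed day 7 region and 1100 bp in the 1193 lost at day 7 that overlapped no listed day 5 region. At day 5, 224 of the regions lost on both days (11.1%) had the minimum length of 1000 bp. Of those listed as lost at day 5 alone, 40.9% had it. At day 7, 202 regions lost on both days had it, against 38.8% of those listed as lost at day 7 alone. The median loss was 1.43-fold at day 5, against 1.36-fold in regions listed as lost at day 5 alone. It was 1.43-fold at day 7, against 1.32-fold in regions listed as lost at day 7 alone. Longer regions are more likely to overlap another region, and the overlap was part of the choice, so these values are descriptions.

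More lost regions were shorter at day 7 than were longer, without a test of the difference. Of the 2019 pairs, 307 had identical coordinates, and the day 7 region was shorter in 875, longer in 728 and of the same length in 416. The day 7 region lay inside the day 5 region in 738 pairs, the day 5 region lay inside the day 7 region in 566, and the regions were shifted in 408. The median difference in length was 0 bp, and the shared part made up a median of 85.2% of the longer region. The regions covered 3424 kb at day 7 and 3483 kb at day 5, of which 3089 kb were shared.

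The window of 1000 bp with the strongest evidence per region was identical on both days in 464 of the 2019 pairs, and its median displacement was 200 bp. It overlapped in 1892 pairs including these, which the short regions and their required overlap favour. In 127 pairs the windows did not overlap. Among them was the strongest region, on chromosome 19, with windows 1500 bp apart, and the region on chromosome 4 that starts at 20326101, with windows 1700 bp apart. In the authors' deposited table the best window had a more negative log2 change than its region in 1247 regions at day 5 and 1380 at day 7. Among regions longer than 1000 bp it lay at an end of the region in 823 of 1795 at day 5 and in 746 of 1817 at day 7. A window picked for its evidence in a lost region favours a more negative change. These counts were not computed over all listed regions, so whether they are particular to the lost regions is not known.

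Day 7 was compared directly with day 5 in the regions of identical coordinates, a contrast that the criteria did not set directly, although they used the reads of both days. limma was fitted to all 593 regions of identical coordinates, gained and lost, of which 307 belonged to the lost regions. It called 0 of the 593 at an adjusted p of 0.05 (0.00%), and the smallest adjusted p of a lost region was 0.285. At an unadjusted p of 0.05 limma called 23 of the 307 lost regions (7.49%), against 9.95% of all 593. Of the 23, 11 were higher at day 7. The median difference of day 7 minus day 5 was 0.00 on the log2 scale, with quartiles of -0.09 and 0.07, and 154 of the 307 regions were higher at day 7. This balance depended on the scaling. For unscaled reads the median was -0.25 and 10 of the 307 were higher at day 7, and for reads over the mean reads per bin, a scaling added after the data were seen, the median was -0.08 and 74 were higher. The 95% interval of a single region, unadjusted for the number of regions, reached a median of 0.24 to each side. The criteria held both days at least 1.20-fold below the same day 0 libraries, and the borders had to be identical. Both limit how far the days can differ in these regions, and the other lost regions are outside the comparison.

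Some lost regions moved further between the days without passing the test. On the scale of the day 5 table, the region on chromosome 10 from 20814901 to 20816900 held 563 and 574 normalised reads at day 0, 370.2 and 409 at day 5, and 284 and 316 at day 7. Its levels stepped down at each day without overlap between the days. The difference of day 7 minus day 5 was -0.38 on the log2 scale (SE 0.09, limma adjusted p = 0.285). On chromosome 11 from 4383901 to 4385000 the values were 229 and 234 at day 0, 158 and 164 at day 5, and 115 and 131 at day 7, a difference of -0.39 (limma adjusted p = 0.346). Chromosome 3 from 8173801 to 8175700 had a difference of -0.41, with an interval from -0.78 to -0.03 and day 0 replicates at 594 and 431.

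The opposite order was seen on chromosome 10 from 12387001 to 12388800. It held 516 and 424 normalised reads at day 0, 255 and 267 at day 5, and 319 and 334 at day 7, so that the day 7 libraries lay between the other groups. The difference was 0.32 (SE 0.11, limma adjusted p = 0.344). Chromosome 6 from 5693501 to 5694800 held 336 and 344 normalised reads at day 0, 236 and 169 at day 5, and 246 and 262 at day 7, a difference of 0.34 (limma adjusted p = 0.493). Without day 5 replicate 1 this difference was 0.59 (limma adjusted p = 0.0188). The highest difference, 0.50 on chromosome 1 from 21013401 to 21014400, had an interval from -0.10 to 1.11 and overlapping groups, with 176 and 118 normalised reads at day 7 against 127 and 81.4 at day 5. Without day 5 replicate 1, limma called 10 of the 593 regions (1.69%), of which 5 were lost regions, and without any other library it called 0.

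**Figure D4:**
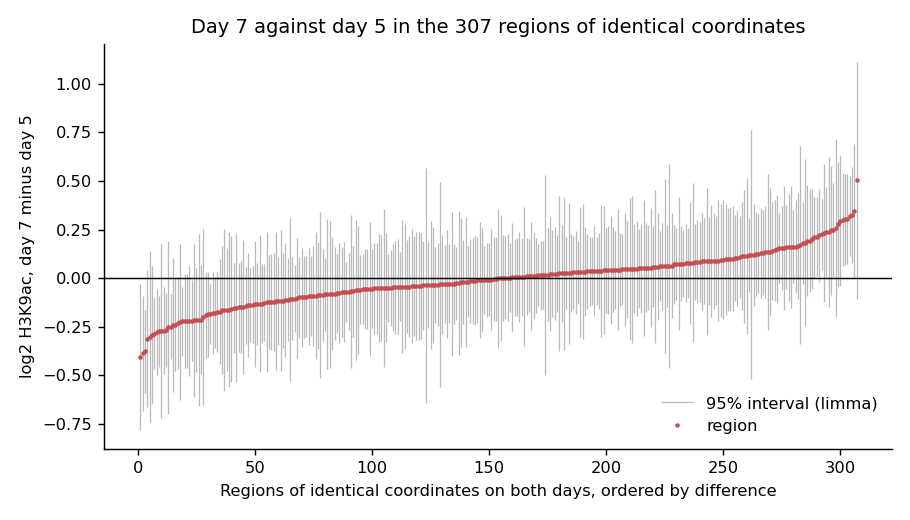
Difference of day 7 minus day 5 in log2 H3K9ac for the 307 lost regions of identical coordinates, ordered by size, with 95% intervals from limma. With the authors' constants differences run from -0.41 to 0.50, with 154 regions above 0 (10 for unscaled reads, 74 for reads over the mean reads per bin), and 0 regions passed an adjusted p of 0.05.

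Input DNA was read from the deposited background ratios, as a single value per day. The headers give the day 0 inputs as background for drought libraries, and for day 0 libraries the inputs of the drought day. Input changes are set against the median listed region of each table, because input depth is unknown. Before this step the median listed region had a log2 input change of -0.24 at day 5 and -0.26 at day 7. Over the 2019 regions the input was close to that of the median listed region. Its median log2 change was 0.08 at day 5, with quartiles of -0.17 and 0.35, and -0.03 at day 7, with quartiles of -0.15 and 0.11. The input varied more widely at day 5. It moved in opposite directions on the 2 days in 64.3% of the lost regions, against 63.4% of all overlapping pairs, and both days shared the day 0 inputs.

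Relative to the input the median log2 change of H3K9ac was -0.61 at day 5 and -0.50 at day 7. It was below 0 in 1891 regions at day 5, in 1985 at day 7 and in 1858 on both days. Of all listed regions, 5649 of 10605 were below 0 at day 5 and 6154 of 12101 at day 7. Among regions listed as lost on a single day, 1108 of 1213 were below 0 at day 5 and 1154 of 1193 at day 7. The choice of regions by low drought reads favours values below 0, so these counts are descriptions. The input was lower by at least as much as the immunoprecipitated signal in 128 regions at day 5 and 34 at day 7, and in 1 region on both days. These counts depend on setting the input against the median listed region, and were not computed over all listed regions. The regions where the input was lower on both days by the widest margin lay on chromosomes 19, 14 and 16. On chromosome 19 from 12259201 to 12260300 the H3K9ac signal was 318 ± 5.35 normalised reads at day 5 against 440.3 ± 67.2 at day 0 (SD, n = 2 each). Its log2 change at day 5 was -0.47. The paired day 7 region ran from 12258601 to 12259800. The input had a log2 change of -0.45 in the day 5 region and -0.47 in the day 7 region. Relative to the input the H3K9ac change was thus -0.02 and -0.08. On chromosome 14 from 11397001 to 11398000 this change was 0.10 at day 5, so higher than day 0, and -0.15 at day 7. On chromosome 16 from 5444201 to 5445800 it was -0.27 and -0.21. In the 10 regions with the largest loss the change relative to the input lay between -2.03 and -1.03 at day 5 and between -1.84 and -1.04 at day 7. The part of the input in the losses was not tested, because it has 1 value per day.

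**Figure D5:**
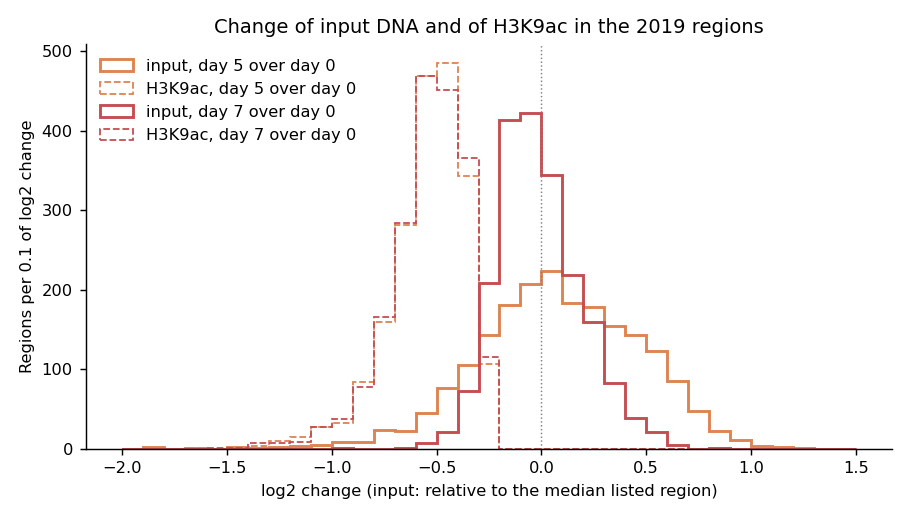
Number of the 2019 regions by log2 change of input DNA (solid, relative to the median listed region) and of H3K9ac (dashed), at day 5 and at day 7 against day 0. Input changes were set against the median listed region, which places them near 0, and have medians of 0.08 and -0.03. H3K9ac changes were not set against it and lie below the limit set by a loss of 1.20-fold.

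Lost regions were spread over all 19 chromosomes, and 1 lay on scaffold_20. They numbered between 3.30 per Mb of listed span on chromosome 19 and 7.58 per Mb on chromosome 9. Their share of the overlapping pairs ran from 30.2% on chromosome 4 to 42.2% on chromosome 16, around the 34.4% of all pairs. Each of the 19 chromosomes held more regions lost on both days than regions gained on both days, while scaffold_20 held 1 lost and 3 gained. Chromosome 19, which carries the sex-determining region of poplar, held 52 lost regions, or 34.4% of its overlapping pairs. Their median log2 change was -0.53 at day 5 and -0.50 at day 7. Chromosomes 8 and 10, which are largely copies of each other from the whole-genome duplication of the Salicaceae, held 140 and 139. These were 32.3% and 31.1% of their overlapping pairs, against 34.4% of all pairs. The 30 regions with a log2 change of -1 or less on both days lay on 16 of the chromosomes.

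Most lost regions stood alone. The median gap to the next lost region was 92.7 kb, and 1780 regions had no other within 5000 bp, while 239 lay in runs of 2 or 3. Around 522 of them (25.9%) the day 5 table listed a further region within 5000 bp whose drought libraries both lay below day 0, and around 148 (7.33%) one whose drought libraries both lay above. At day 7 these were 525 (26.0%) and 245 (12.1%). Of all listed regions, 51.1% (5423) were of the lower kind at day 5 and 49.7% (6020) at day 7, and 4853 and 5741 were of the higher kind. Regions of the higher kind within 1000 bp were found beside 33 lost regions at day 5 (1.63%) and 79 at day 7 (3.91%). The share of all listed regions with such neighbours was not computed. Whether these neighbours are particular to the lost regions is therefore not known.

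The longest runs held 3 lost regions, and there were 13 of them. The 3 described here come first by chromosome and start, so they are not the strongest. On chromosome 2 from 24632501 to 24641000, 3 lost regions lay in a run of 8500 bp. The first of them, 1700 bp long, held 501 and 453 normalised reads at day 5, against 641 and 573 at day 0. The next, from 24635001 to 24636900, held 199.5 and 200.3 normalised reads at day 5, against 495 and 445 at day 0. The last, from 24638201 to 24641000, held 311 and 292 at day 5, against 709 and 741 at day 0. The loss thus differed within the run, at 1.27-fold, 2.35-fold and 2.41-fold at day 5 and 1.45-fold, 1.90-fold and 2.13-fold at day 7. Another run on chromosome 2, from 4963801 to 4973300, had median log2 changes of -0.50 at day 5 and -0.36 at day 7. A run on chromosome 3 from 11206801 to 11221700 had medians of -0.53 and -0.50. In that run the middle region, from 11213301 to 11215400, had closely spaced libraries, with 423 and 422 normalised reads at day 5 against 658 and 647 at day 0.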

How the data were processed

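H3K9ac immunoprecipitates and inputs of 6 groups were sequenced, after sonication to 200 to 1000 bp and 18 PCR cycles per the labels' protocols. The submitters' processing notes name Bowtie without a version. Both tables come from diffReps 1.55.4 per the file headers. These give a negative binomial test, windows of 1000 bp, steps of 100 bp and a window p-value limit of 0.0001. They also give a deviation cutoff of 2, with an alpha of 0.05 for a right-trimmed mean. The p-value limit thus took part in deciding which windows are listed. The deposited average signal is the mean of the normalised reads of 2 libraries, which stand in a single cell in header order. The deposited ratio columns give enrichment over background, the deposited log2 columns the change of drought over day 0, and the deposited p-value columns the region test and its Benjamini-Hochberg adjustment.

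The tables name chromosomes differently and were matched by number. Day 0 reads were the same in both tables in all 593 regions of identical coordinates. Multiplying each library's normalised values by a fitted constant close to the header's gave whole numbers (tolerance 0.1) in 100% of regions, taken as its reads. A count model was not fitted, because values are paired in cells and only selected regions are listed. Means, SDs and log2 changes against day 0 were computed from the normalised reads with Python 3.11.15 and pandas 2.3.3. Day 7 was compared with day 5 with limma 3.58.1 in R 4.3.3 on log2 normalised reads of 6 libraries, without a pseudocount, with a prior variance trended on the mean and Benjamini-Hochberg adjustment over 593 regions, with day 7 values multiplied by 1.09. The fit was tested on simulated data. The regions, classes and lists were chosen with earlier results of these data known, and classes of loss, length and enrichment after values were seen. Named regions are those with the 10 largest losses held on both days, the 5 highest day 0 levels per kb and the 5 highest enrichments. Also named are the 3 lowest and 3 highest differences between drought days, 3 runs and the regions nearest the ratio limit. The runs tie with others of 3 regions and were taken by lowest chromosome and start. The last are the 3 whose input fell most on both days, relative to the median listed region. Nearest genes, which were planned, were not assigned because the headers do not name the build in full. Other settings are given in the closing section.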

Additional observations from a re-analysis of the deposited data

How the results depend on the processing

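The number of lost regions was 1260 with an overlap of at least 80% of each length, 1231 with a ratio of at most 0.75 and 349 with an enrichment of at least 2. It lay within 1.5 times 2019 under the other settings, at 2342 for unscaled reads and at 2602 for reads over the mean reads per bin, a scaling added after the data were seen. Leaving out 1 library in turn gave 1958 to 2001. The median log2 change at day 5 was -0.57 for unscaled reads, -0.61 relative to the input and -0.62 for reads over the mean per bin, and it ran from -0.53 to -0.49 without 1 library. At day 7 it was -0.84 for unscaled reads and -0.69 for reads over the mean per bin, and it ran from -0.53 to -0.49 without 1 library. Unscaled reads moved the median of all listed regions by -0.06 at day 5 and -0.32 at day 7, and reads over the mean per bin by -0.10 and -0.18, so losses were deeper by about that shift. Unscaled reads put 70.9% of all regions listed for day 7 below day 0, against 51.3% with the authors' constants. The limma comparison of day 7 with day 5 called 0 to 10 regions without 1 library, the 10 without day 5 replicate 1, and the lone library is then assumed to vary like the other groups. It called 0 under every other setting, while the median difference was -0.25 for unscaled reads and -0.08 for reads over the mean per bin. The labels do not say that replicate numbers pair the samples. The correlation of replicate differences was 0.189 between day 7 and day 5, and with the replicate block limma called 0 regions, with 64 at an unadjusted p of 0.05 against 59 without it. With 2 libraries per day, differences between drought days of up to 0.50 on the log2 scale were not called in the lost regions.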
